A study of Taeniopygia guttata with 2 samples.

Results

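SLIT1, SLIT2 and SLIT3, the secreted ligands, and ROBO1 and ROBO2, their receptors, were followed across the cell types of Area X, the basal ganglia nucleus of the song system. The 5 genes were chosen by name from the 17430 gene columns of the count table. Nuclei came from Area X of adult male zebra finches, 160 to 185 days after hatching by the labels (the study's methods give a somewhat later age at death). The birds had received either CS-shFoxP2, an adeno-associated virus with hairpins against FoxP2 behind a CAG promoter, which is not limited to a cell type, or CS-shScr, the same Cre-switch construct with a scrambled hairpin. The switch keeps the hairpin on until Cre is present, and the methods describe no Cre injection for these birds. All birds were kept on a reversed light cycle and were put down before the lights came on. The labels call the cell type striatal projection neurons, but the libraries held all the cell types below. Each condition gave 1 single-nucleus library, pooled from 4 hemispheres of 2 birds, with 12956 nuclei in the library labelled shFoxP2 and 14289 in the shScr library.

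SLIT proteins are secreted by cells and repel growing axons and migrating cells that carry ROBO receptors. Binding of a SLIT to a ROBO recruits GTPase-activating proteins of the SRGAP family, adaptors and actin regulators, which reshape the cytoskeleton of the growth cone. In vocal learning birds the pathway is known for specialized expression of SLIT1 and ROBO1 in song nuclei.

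With 1 library per condition no test between conditions was possible, and the nuclei of a library are not replicates. Levels are therefore given as the summed UMIs (unique molecular identifiers, the counted RNA molecules) of a gene per 10000 UMIs of all genes in the same nuclei, with exact 95% intervals that cover counting error only. The reads were counted over exons and introns, so levels are compared between cell types and libraries within a gene, never between genes. The median nucleus held 2871 UMIs in the library labelled shFoxP2 and 2300 in the shScr library, and 47 barcodes occurred in both libraries. FOXP2, the targeted gene, was not lower in the library labelled shFoxP2, with 5.85 UMIs per 10000 in medium spiny neurons (MSNs, the striatal projection neurons) against 4.75 in the shScr library, a log2 ratio of 0.30 (0.27 to 0.34). In other adult birds the study found lower FoxP2 protein, by antibody staining, in Area X cells carrying the hairpin. The counts here are RNA over exons and introns from all nuclei, so they do not measure that protein. Since FOXP2 RNA was not lower, the shFoxP2 label is used as a name only, and no direction below is read as an effect of lowered FOXP2.

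The 23 clusters are those deposited by the authors, with the class names of the study, checked against markers. Among interneurons, cluster 16 had the highest SST, NPY and NOS1 and cluster 23 the highest CHAT. By mean level over the libraries PVALB was highest in cluster 14, at 3.26 and 4.63 UMIs per 10000 in the library labelled shFoxP2 and in shScr, but the next cluster averaged 3.35, so cluster 14 is called by its number. SLC17A6 was highest in GLUT+ cluster 10. TSHZ1 and MEIS2 were highest in pallidal-like cluster 12, but PENK, the study's main marker of that class, was highest in interneuron cluster 19. PENK stood there at 16.5 and 15.96 UMIs per 10000 in the library labelled shFoxP2 and in shScr, and the next cluster averaged 11.06. Cluster 12 also held the MSN markers, MEIS2 among them, at a summed 102 and 109. Cluster 16 held the MSN markers at a summed 57.6 and 46.5, and the pallidal-like markers, MEIS2 again among them, at 33.4 and 26.5. MSN clusters low in DRD2 (2 and 4) are called direct-like and the others (1, 3 and 5) indirect-like. These names rest on DRD2 only. Cluster 5 had FOXP2 at 5.56 and 4.57 UMIs per 10000 (in the library labelled shFoxP2 and in shScr), against 0.508 and 0.441 in cluster 1. Its nuclei were deep, with medians of 5343.5 and 4278 UMIs, and 23.5% of them were among the 8% with the highest doublet scores. Cluster 7, named astrocyte, also carried MSN markers at a summed 73.9 and 84.4 UMIs per 10000 (in the library labelled shFoxP2 and in shScr), so cluster 6 is used for astrocytes. Cluster 11, red blood cells, served as the background of free RNA. It held the 8 MSN markers at a summed 69.3 and 84.1 UMIs per 10000, against 90.6 and 103 in MSN cluster 1, and PPP1R1B, TAC1 and DRD1 had their highest mean level in it of all clusters, so RNA of MSN genes was present in it. Since these MSN markers were lower in MSNs than in cluster 11, an MSN level near or below this background does not show that MSNs lack the gene.

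Each ligand was highest in a different cell type. SLIT1 was highest in GLUT+ cluster 10, the excitatory neurons, at 2.73 UMIs per 10000 (2.48 to 2.99) in the library labelled shFoxP2 and 2.30 (2.05 to 2.58) in the shScr library. Next in mean level came the SST, NPY and NOS1 interneurons of cluster 16, with 1.94 and 1.23, and GLUT+ cluster 9, with 1.49 and 0.959. The interval of cluster 10 lay above those of both in each library, whereas the intervals of clusters 16 and 9 overlapped. SLIT1 was sparse elsewhere: in MSNs together it stood at 0.480 (0.454 to 0.506) in the library labelled shFoxP2 and 0.235 (0.217 to 0.255) in shScr. The red blood cell background was 0.392 (0.219 to 0.647) and 0.609 (0.372 to 0.940), from 15 and 20 UMIs. The MSN interval lay inside that of the background in the library labelled shFoxP2 and below it in shScr. Because red blood cells held MSN RNA, this cannot decide whether SLIT1 RNA in MSNs is background. Of the other 22 clusters, 14 had a SLIT1 level above that background in the library labelled shFoxP2 and 6 in shScr.

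SLIT2 had the narrowest pattern of the ligands. The SST, NPY and NOS1 interneurons of cluster 16 held 6.06 UMIs per 10000 (5.46 to 6.71) in the library labelled shFoxP2 and 3.01 (2.62 to 3.44) in shScr. Pallidal-like neurons, cluster 12, named for the output neurons of Area X, held 3.52 (3.08 to 3.99) and 2.75 (2.42 to 3.12). Their intervals were apart in the library labelled shFoxP2 only, but cluster 12 was clear of the next cluster in order, MSN cluster 4, in both. After thinning each nucleus to 1000 UMIs, 32.7% of cluster 16 nuclei (exact binomial 25.5 to 40.6) had a UMI of SLIT2 in the library labelled shFoxP2, and 16.02% (11.3 to 21.8) in shScr. Unthinned, the shares were 49.4% and 32.0% of cluster 16 nuclei, at median depths of 3402 and 3133.5 UMIs. Among red blood cells, 0.268% and 0.610% of nuclei had a SLIT2 UMI, at median depths of 630 and 659 UMIs. A single nucleus of cluster 16 carried as many as 17 SLIT2 UMIs in the library labelled shFoxP2 and 11 in shScr.

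SLIT3 was highest in the CHAT interneurons of cluster 23, the cholinergic cells, with 14.4 UMIs per 10000 (13.1 to 15.9) in the library labelled shFoxP2 and 13.6 (11.98 to 15.3) in shScr. Its intervals were clear of those of cluster 18 interneurons, the next in order, at 10.4 and 8.20. GLUT+ cluster 9 followed with 7.18 and 5.84, whereas GLUT+ cluster 10, the peak of SLIT1, had only 1.33 and 0.874. At the other end, cluster 14 interneurons held 0.312 and 0.156, and cluster 17 interneurons 0.322 and 0.179, below the red blood cell background of 2.48 and 1.19. MSNs lay between, at 4.69 (4.61 to 4.78) in the library labelled shFoxP2 and 2.87 (2.80 to 2.94) in shScr, above the background in both. Because MSNs are so many, they held most of the SLIT3 UMIs: direct-like MSNs 32.9% and indirect-like MSNs 41.0% in the library labelled shFoxP2, and 31.3% and 35.6% in shScr.

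**Figure D1:**
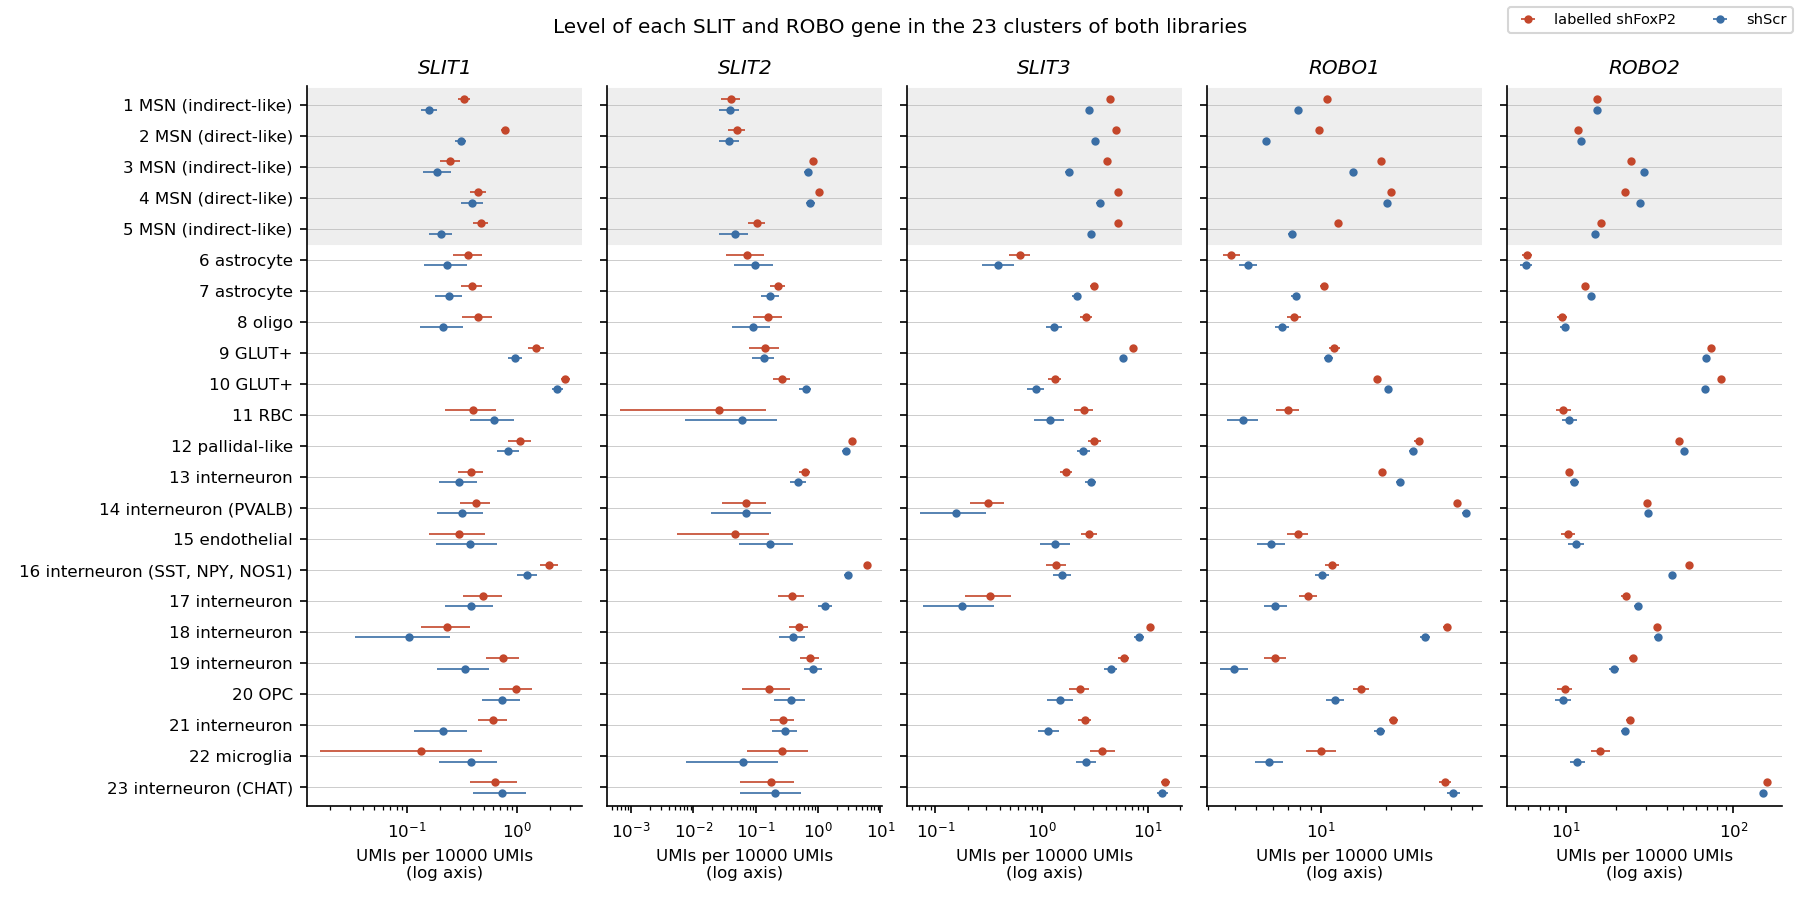
Level of each gene (UMIs per 10000 UMIs, log axis) in the 23 clusters, with exact 95% Poisson intervals. The library labelled shFoxP2 is in red and drawn above shScr in blue, and MSN clusters are shaded. SLIT1 peaks in cluster 10, SLIT2 in clusters 16 and 12, SLIT3 and ROBO2 in cluster 23 and ROBO1 in cluster 14.

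ROBO1, a receptor for all the SLIT ligands, was highest in cluster 14 interneurons, the cells in which SLIT3 was lowest. Its level there was 43.0 UMIs per 10000 (41.7 to 44.3) in the library labelled shFoxP2 and 47.1 (45.3 to 48.9) in shScr. CHAT interneurons of cluster 23 came next, with 37.6 and 41.1, then cluster 18 interneurons, with 38.2 and 30.3, and the order of those clusters differed between the libraries. Pallidal-like neurons held 28.3 and 26.8, clear of cluster 13 below them. Astrocytes of cluster 6 had the lowest mean level, 3.84 and 4.58, beside a red blood cell background of 7.01 (6.19 to 7.90) and 4.32 (3.64 to 5.09). In cluster 14, 99.6% and 99.4% of nuclei had a ROBO1 UMI (median depths of 3956 and 3706 UMIs), against 27.9% and 20.7% of red blood cell nuclei.

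ROBO2 was highest in CHAT interneurons by a wide margin, at 159 UMIs per 10000 (155 to 164) in the library labelled shFoxP2 and 150.1 (145 to 156) in shScr. This was 7.09 and 7.75 times the median of the clusters in those libraries. GLUT+ clusters 10 and 9 followed, with 83.8 and 67.3 in cluster 10 and 73.9 and 69.1 in cluster 9, and their order differed between the libraries. Below them came pallidal-like neurons, at 47.7 and 50.7, and cluster 16 interneurons, at 54.7 and 43.1, whose order also differed between the libraries. Astrocytes of cluster 6 were lowest, with 5.87 and 5.81, below the red blood cell background of 9.67 and 10.5. GLUT+ neurons made up 4.79% and 5.67% of nuclei and 6.35% and 8.1% of all UMIs, but held 22.6% and 24.5% of ROBO2 UMIs, in the library labelled shFoxP2 and in shScr. The only other receptor genes of the family in the table were near zero: ROBO3 had no more than 0.0109 UMIs per 10000 in any cluster, and ROBO4, known from blood vessels, was highest in endothelial cells at 0.0916 and 0.0672.

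The profile of each gene over the 23 clusters was much alike in the libraries. Pearson's r on the log2 scale was 0.803 for SLIT1, 0.899 for SLIT2, 0.955 for SLIT3, 0.958 for ROBO1 and 0.986 for ROBO2. These values describe clusters of the same tissue that share libraries and were built jointly, and carry no test.

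**Figure D2:**
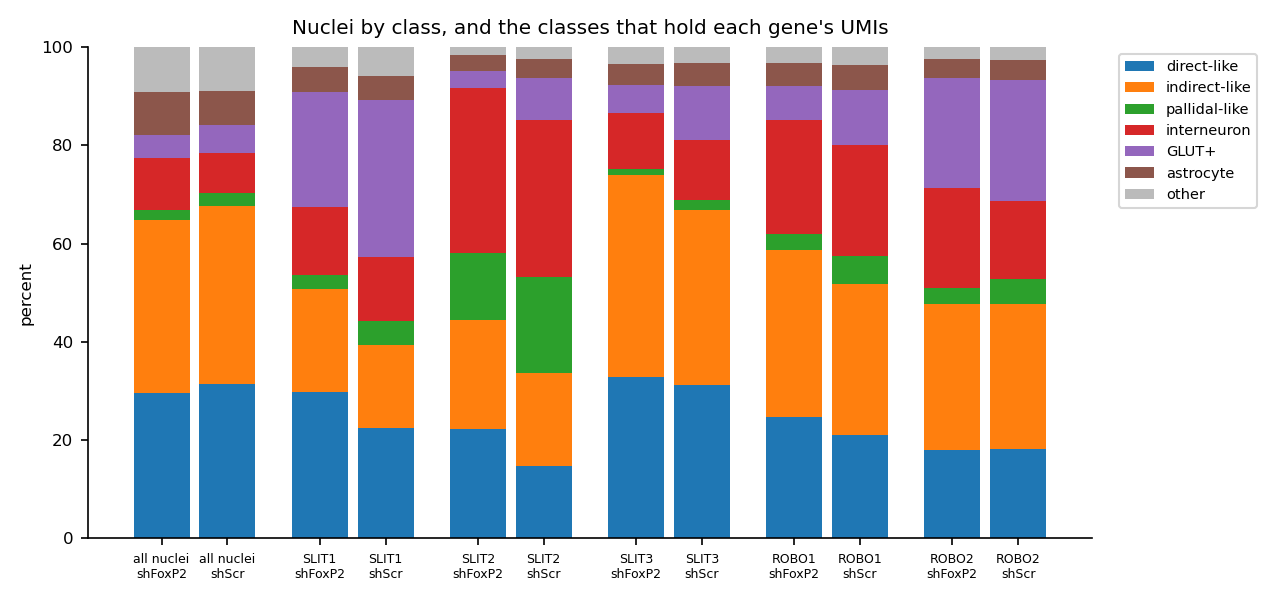
Percent of nuclei (leftmost pair of bars) and percent of each gene's UMIs (other pairs) by class of cell, with the library labelled shFoxP2 left of shScr in each pair. MSNs hold most SLIT3 UMIs, while pallidal-like neurons and interneurons hold more of SLIT2, and GLUT+ neurons more of SLIT1 and ROBO2, than their share of nuclei.

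Within MSNs, SLIT2 and both receptors set clusters 3 and 4 apart from clusters 1, 2 and 5. SLIT2 stood at 0.9298 UMIs per 10000 in clusters 3 and 4 and 0.0560 in the other MSN clusters in the library labelled shFoxP2, a 16.6-fold difference. In shScr the levels were 0.718 and 0.0391, an 18.4-fold difference. The red blood cell background was 0.0261 and 0.0609, from only 1 and 2 UMIs, too few to place clusters 1, 2 and 5 against it. Most SLIT2 UMIs of MSNs came from clusters 3 and 4, which are of different pathway type: 668 of 782 MSN UMIs in the library labelled shFoxP2 and 342 of 422 in shScr. ROBO1 was 1.89-fold higher in clusters 3 and 4 in the library labelled shFoxP2 (19.9 against 10.5) and 2.46-fold higher in shScr (16.7 against 6.78). ROBO2 was 1.68-fold higher (23.60 against 14.09) and 2.05-fold higher (28.6 against 13.99). SLIT3 did not share this split, with 4.57 against 4.74 in the library labelled shFoxP2 and 2.54 against 2.95 in shScr. SLIT1 was lower in clusters 3 and 4 in the library labelled shFoxP2, with 0.337 against 0.530 (log2 ratio -0.65, -0.86 to -0.45). In shScr it stood at 0.275 against 0.226, with an interval that included 0 (0.28, -0.0070 to 0.57). Since the clusters were built from the expression of all genes, these differences describe the clusters and were not tested.

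Ligand and receptor RNA were often found in the same nucleus. After thinning to 1000 UMIs, 35.45% of MSN nuclei in the library labelled shFoxP2 had a UMI of any SLIT and of ROBO1 or ROBO2, and 22.7% in shScr. The separate shares of MSN nuclei were 39.4% and 26.3% for any SLIT and 89.8% and 85.2% for either ROBO, so most nuclei with a SLIT UMI would also hold a ROBO UMI. In pallidal-like neurons these shares were 47.0% and 42.6%. In cluster 14 interneurons, 99.6% and 100.0% of the thinned nuclei had a ROBO UMI, but 5.62% and 6.62% had any SLIT UMI. In red blood cells 23.5% and 17.1% of the 68 and 82 thinned nuclei had a SLIT UMI, 77.9% and 68.3% a ROBO UMI, and 20.6% and 12.2% both. Such shares are thus also seen in the background, and the cluster 14 shares of SLIT lay below it. Co-detection was set beside the product of the separate shares. In cluster 4, 8% of nuclei (6.45 to 9.79) had both SLIT2 and ROBO1 in the library labelled shFoxP2, where the product is 8.02%, and 5.01% (3.57 to 6.81) in shScr, where the product is 4.99%. In cluster 16, where SLIT2 is highest, 16.98% had both (11.5 to 23.7, product 18.9%) in the library labelled shFoxP2 and 4.85% (2.35 to 8.75, product 8.24%) in shScr. In direct-like MSNs of shScr the product lay below the interval for SLIT2 with ROBO1, at 0.985% (0.717 to 1.32, product 0.674%), and for SLIT3 with ROBO1, at 11.6% (10.7 to 12.6, product 10.6%). In the library labelled shFoxP2 those products were inside it, at 2.44% (1.98 to 2.98, product 2.03%) and 23.05% (21.7 to 24.4, product 22.8%). Direct-like MSNs pool clusters 2 and 4, and the part of pooling was not tested. Within either cluster of shScr, from fewer nuclei, each product lay inside its interval. Cluster 2 had 0.162% for SLIT2 with ROBO1 (product 0.171%) and 10.04% for SLIT3 with ROBO1 (9.086 to 11.05, product 9.092%), the latter product only just inside. Cluster 4 had 5.01% (product 4.99%) and 19.5% (product 18.5%). ROBO1 and ROBO2, neighbouring genes in the RefSeq annotation of another zebra finch assembly, were both detected in 46.97% of MSN nuclei (product 46.6%) in the library labelled shFoxP2 and 36.4% (product 35.0%) in shScr. In nuclei other than MSNs, which pool many cell types, these shares were 41.5% (product 36.9%) and 41.0% (product 36.2%), and the part of pooling was not tested.

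Direct-like MSN nuclei with a FOXP2 UMI (FOXP2+) were compared with those lacking one inside each library. After thinning to 1000 UMIs, 62.9% of direct-like nuclei (61.3 to 64.4) in the library labelled shFoxP2 and 55.5% (54.0 to 57.0) in shScr had a FOXP2 UMI, at median depths of 2765 and 2166.5 UMIs before thinning. Red blood cells, the background, had 26.5% (16.5 to 38.6) and 24.4% (15.6 to 35.1). These shares rest on the 68 and 82 nuclei with at least 1000 UMIs, of 373 and 328. Over all red blood cell nuclei the median depths were 630 and 659. Indirect-like MSNs together were below that background, at 11.9% and 9.39%, whereas their cluster 5 had 41.7% and 36.15%. Clusters 1 (4.03% and 3.68%) and 3 (15.1% and 12.4%) were below it, so their splits further down are description only. In direct-like MSNs, unthinned, ROBO1 was higher in FOXP2+ nuclei, with 13.2 against 10.8 UMIs per 10000 in the library labelled shFoxP2 and 8.95 against 5.59 in shScr. The log2 ratios were 0.29 (0.19 to 0.40) and 0.68 (0.58 to 0.77). Within cluster 4 alone the same order held, with 21.3 against 17.5 in the library labelled shFoxP2 and 20.9 against 12.02 in shScr, and in cluster 2 the levels were 9.82 against 8.95 and 5.66 against 4.96. ROBO2 was also higher in FOXP2+ direct-like nuclei (15.1 against 13.2, and 15.7 against 13.3). In cluster 2 its levels were 11.97 against 10.3 (log2 ratio 0.21, 0.10 to 0.33) in the library labelled shFoxP2 and 12.4 against 11.8 (0.068, -0.0026 to 0.14) in shScr. In cluster 4 they were 22.4 against 23.5 and 27.7 against 28.7, with intervals that included 0. The indirect-like clusters varied. In cluster 3 ROBO1 was lower in FOXP2+ nuclei, with log2 ratios of -0.17 (-0.24 to -0.10) and -0.14 (-0.24 to -0.04). In cluster 5 its ratios were 0.16 (0.02 to 0.31) and 0.14 (-0.02 to 0.31), and in cluster 1 both intervals included 0. ROBO2 had -0.09 and -0.27 in cluster 3, -0.09 and -0.05 in cluster 1 and 0.10 and 0.04 in cluster 5. FOXP2+ direct-like nuclei were deeper, with a median of 2785.5 against 2569 UMIs in the library labelled shFoxP2 and 2206 against 2034 in shScr. In cluster 3 the gap in depth was larger, at 4658 against 2943.5 and 4119 against 2396.5 UMIs. The part of depth and of free FOXP2 RNA in all these differences was not tested.

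Between the libraries, the ligands and ROBO1 were higher in the MSNs of the library labelled shFoxP2, and ROBO2 was level. SLIT1 stood at 0.480 UMIs per 10000 in that library against 0.235 in shScr, a log2 ratio of 1.03 (0.89 to 1.17). SLIT3 stood at 4.69 against 2.87, a log2 ratio of 0.71 (0.67 to 0.75). SLIT2 stood at 0.284 against 0.167, with a log2 ratio of 0.76 (0.59 to 0.94), and ROBO1 at 12.98 against 8.65, with 0.59 (0.56 to 0.61). ROBO2 was at 16.57 against 16.75, a log2 ratio of -0.02 (-0.03 to 0.00). Thus 4 of 5 genes were past a log2 ratio of 0.5 (1.41-fold) in MSNs, where 9.11% of 10125 genes with at least 200 UMIs were higher by that much and 9.1% lower. The same 4 genes were past it in direct-like MSNs (7.99% of genes higher) and in indirect-like MSNs (8.86%). SLIT1 and SLIT3 alone, 2 of 5, were past it over all nuclei (8.17%) and over nuclei of any type with a FOXP2 UMI (FOXP2+, 7.26%). Each ratio compares a pair of libraries, not conditions, and bird, batch and hairpin cannot be told apart.

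The makeup of the MSN class bore on SLIT2 and ROBO1. Clusters 3 and 4, rich in both, made up 25.4% of MSN nuclei in the library labelled shFoxP2 and 17.01% in shScr. With cluster shares held at those of both libraries together, SLIT2 stood at 0.252 against 0.193, a log2 ratio of 0.39, and ROBO1 at 12.6 against 9.06, a log2 ratio of 0.48. SLIT1 and SLIT3 were then at 1.03 and 0.71 and ROBO2 at -0.09, so that 2 of 5 genes were past the fold, against 8.61% of all genes higher. Held in the same way, SLIT2 came to 0.47 in direct-like and 0.31 in indirect-like MSNs and ROBO1 to 0.46 and 0.49, all short of the fold.

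SLIT3 was the gene whose difference held across the MSN clusters. It was higher in the library labelled shFoxP2 in 5 of 5, all past the fold, where 8.16%, 8.17%, 5.46%, 5.12% and 7.17% of genes in clusters 1 to 5 were, with the largest log2 ratio in cluster 3, at 4.06 against 1.81 UMIs per 10000 (1.17, interval 1.02 to 1.32). The others lay between 0.56 in cluster 4 and 0.85 in cluster 5. In red blood cells, SLIT3 was at 2.48 in the library labelled shFoxP2 and 1.19 in shScr, a log2 ratio of 1.07 (0.51 to 1.64) from 95 and 39 UMIs, so the background moved in the same direction as the MSNs. Its part in the MSN difference was not tested.

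The ratio of ROBO1 varied between MSN clusters. In direct-like cluster 2 ROBO1 was at 9.76 UMIs per 10000 in the library labelled shFoxP2 and 5.52 in shScr, a log2 ratio of 0.82 (0.77 to 0.87), and in indirect-like cluster 5 at 12 and 7.31 (0.72, interval 0.64 to 0.79). In direct-like cluster 4, where it is highest among MSNs, it was at 21.1 and 20.2, a log2 ratio of only 0.07 (0.01 to 0.12). Clusters 1 and 3 lay between, with 0.44 and 0.43. Red blood cells had a log2 ratio of 0.70 (0.40 to 1.00) for ROBO1, again in the direction of the MSNs and not tested as a source of it. ROBO2 went the other way in the clusters where it is highest among MSNs: in cluster 3 it was at 24.6 against 29.3, a log2 ratio of -0.25 (-0.30 to -0.21), and in cluster 4 at 22.5 against 27.8, or -0.31 (-0.36 to -0.26). Clusters 1, 2 and 5 lay between -0.05 and 0.12. In red blood cells ROBO2 had a log2 ratio of -0.12 (-0.34 to 0.09).

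SLIT1 was higher in cluster 2, at 0.769 UMIs per 10000 against 0.305, a log2 ratio of 1.34 (1.12 to 1.55). Clusters 1 and 5 had 1.06 (0.76 to 1.37) and 1.20 (0.78 to 1.63), but in clusters 3 and 4 the intervals included 0, at 0.38 (-0.13 to 0.90) and 0.19 (-0.22 to 0.60). In red blood cells SLIT1 had a log2 ratio of -0.63 (-1.70 to 0.41) from 15 and 20 UMIs. SLIT2, in the MSN clusters that held most of it, had 0.26 (-0.01 to 0.52) in cluster 3 and 0.48 (0.20 to 0.76) in cluster 4, neither past the fold.

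**Figure D3:**
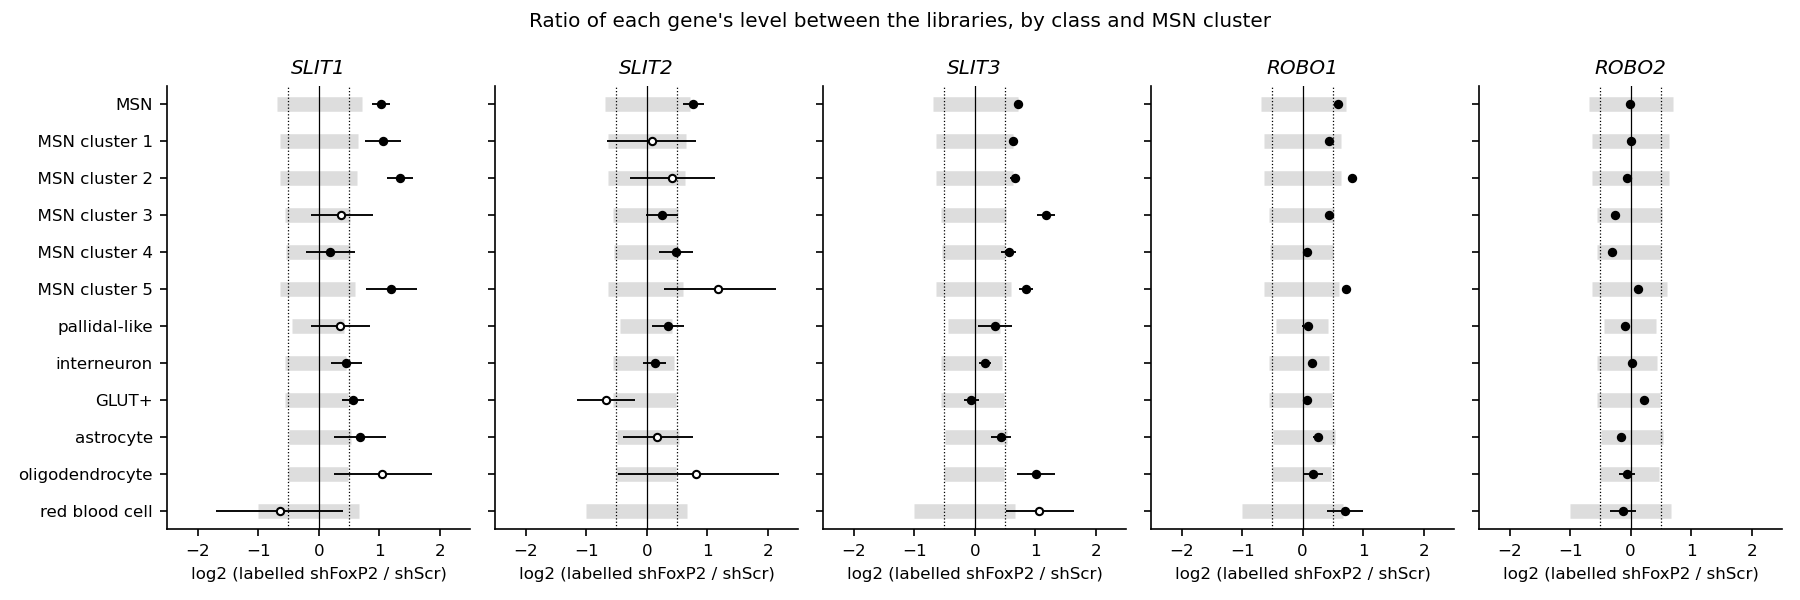
Log2 ratio of the library labelled shFoxP2 over shScr for each gene in MSNs, the 5 MSN clusters and other classes, with exact binomial 95% intervals. Filled points have at least 200 UMIs over both libraries, open points fewer, and groups with under 10 UMIs are left out. Grey bars span the 5th to 95th percentile of all genes with at least 200 UMIs in that group, and dotted lines mark the fold. SLIT3 is right of the fold in all 5 MSN clusters, and ROBO2 lies inside the dotted lines in every group shown.

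Outside MSNs fewer members were past the fold. In all other nuclei together no member was past the fold in either direction (5.67% of genes were higher and 5.67% lower), with log2 ratios of 0.36 (0.24 to 0.49) for SLIT1, 0.11 (-0.03 to 0.24) for SLIT2, 0.23 (0.16 to 0.29) for SLIT3, 0.19 (0.17 to 0.22) for ROBO1 and -0.0030 (-0.02 to 0.02) for ROBO2. Pallidal-like neurons had 0 of 4 measurable members past the fold (3.31% of genes higher) and interneurons 0 of 5 (3.67%). SLIT1 in interneurons had a log2 ratio of 0.45, but was past the fold when thinned to 1000 UMIs (0.57) or to 500 UMIs (0.65) and with cluster shares held (0.66). In GLUT+ neurons 1 of 4, SLIT1, was past it (4.51%), with 2.24 against 1.52 UMIs per 10000 and a log2 ratio of 0.56 (0.39 to 0.74). It was 0.37, short of the fold, with the shares of the clusters held. In the classes below, 1 member each was past the fold: SLIT1 in astrocytes of clusters 6 and 7 together, 1 of 4 (5.93%), at 0.377 against 0.236 with a log2 ratio of 0.67 (0.25 to 1.10; 0.65 in cluster 6 alone, interval -0.13 to 1.47), SLIT3 in oligodendrocytes, 1 of 3 (4.49%), at 2.62 against 1.30 (1.012, interval 0.70 to 1.33), and ROBO1 in microglia, 1 of 2 (9.04%), at 10.03 against 5.75 (0.80, interval 0.48 to 1.12). In red blood cells, the background, SLIT1 was at 0.392 against 0.609, SLIT3 at 2.48 against 1.19 (1.07) and ROBO1 at 7.01 against 4.32 (0.70). The part of the background in the ratios of astrocytes, oligodendrocytes and microglia was not tested. Whether any ratio differed between MSNs and other classes was not tested either.

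Single interneuron clusters departed from this. In cluster 16, where SLIT2 is highest, SLIT2 was at 6.06 in the library labelled shFoxP2 against 3.01 in shScr, a log2 ratio of 1.009 (0.76 to 1.26), and SLIT1 at 1.94 against 1.23 (0.66, interval 0.25 to 1.07), so that 2 of 4 members with at least 200 UMIs were past the fold (4.35% of genes were higher). FOXP2 was also higher in cluster 16, at 13.5 against 8.90 (0.60, interval 0.45 to 0.75). Whether the makeup of cluster 16 differed between the libraries was not tested. In cluster 13 SLIT3 was lower, at 1.69 against 2.89, a log2 ratio of -0.77 (-1.02 to -0.52), and was the only 1 of 3 measured members past the fold there (4.91% of genes were lower). In the top clusters of the receptors the libraries were close: ROBO1 in cluster 14 had a log2 ratio of -0.13 (-0.20 to -0.06) and ROBO2 in cluster 23 of 0.09 (0.02 to 0.15). SLIT3 in cluster 23 likewise had 0.09 (-0.14 to 0.32). Across all 23 clusters ROBO2 was past the fold in none, whereas ROBO1 was higher past it in 6. Among clusters with at least 200 UMIs of the gene, SLIT1 was higher past it in 5 of 7 and SLIT2 in 1 of 4, and SLIT3 was higher past it in 9 of 15 and lower in 1, where the median cluster had 4.72% of genes higher past it.

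The other genes of the pathway (further ligands, co-receptors, GTPase regulators, GTPases, adaptors and actin regulators) went in both directions in MSNs. Of 35 listed partners 30 were in the table and 28 had at least 200 UMIs. Among these, 2 were higher and 1 lower past the fold (beside 9.11% and 9.1% of all genes), and 12 of 28 had a ratio above 0, with a median log2 ratio of -0.06 beside 0.01 for all genes. NELL1, which encodes a secreted protein of the NELL family, a relative of NELL2, a ROBO3 ligand in the mouse, was at 1.20 UMIs per 10000 against 0.787 in shScr, a log2 ratio of 0.61 (0.53 to 0.69). Its ratio was 0.75 (0.67 to 0.84) in indirect-like MSNs, at 1.81 against 1.07, but -0.19 (-0.39 to 0.016) in direct-like MSNs, at 0.344 against 0.391. SRGAP1, the GTPase-activating protein that binds ROBO1 and switches off CDC42, was at 0.792 against 0.448, a log2 ratio of 0.82 (0.72 to 0.93). ABL1, a kinase whose fly relative phosphorylates ROBO, was at 0.116 against 0.220, a log2 ratio of -0.93 (-1.13 to -0.73). The red blood cell background was 1.10 and 1.34 for NELL1, 0.680 and 0.487 for SRGAP1 and 0.209 and 0.396 for ABL1. The ABL1 value in MSNs was smaller than that of the background in both libraries, and those of NELL1 and SRGAP1 were smaller in shScr. Red blood cells held only 382565 and 328684 UMIs of all genes together. Their levels are given here without intervals, and the order of MSNs and background was not tested. The part of the background in these ratios was not tested. In FOXP2+ nuclei and in all nuclei other than MSNs, 0 of the 28 partners were past the fold in either direction, beside 7.26% of all genes higher and 7.58% lower in FOXP2+ nuclei and 5.67% each way in the others. The 7 measured GTPase regulators had a median of 0.07, with SRGAP2 at 0.13 and SRGAP3 at -0.10. The GTPases RHOA, RAC1 and CDC42, which ROBO signalling tunes, were at -0.30, -0.19 and -0.08.

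Some partners had their highest mean level in the top cluster of a member. SRGAP2, a GTPase-activating protein of the SRGAP family, and PLXNA1, a semaphorin receptor that in the mouse also binds a SLIT fragment, were highest in the cluster 14 interneurons in which ROBO1 is highest, with 4.39 and 4.11 UMIs per 10000 for SRGAP2 and 1.04 and 1.58 for PLXNA1 in the library labelled shFoxP2 and in shScr. The red blood cell background was 0.915 and 1.10 for SRGAP2 and 0.288 and 0.243 for PLXNA1. NELL2 was also highest there, at 10.7 and 12.3, but hardly above cluster 17, at 10.1 and 12.3, and the red blood cell background, at 9.99 and 11.1. FLRT3, a membrane protein that in the mouse binds ROBO1, was highest in CHAT interneurons, at 3.15 and 2.74 (background 1.54 and 1.49), where SLIT3 and ROBO2 are highest. No partner had its peak in cluster 10 or 16, the top clusters of SLIT1 and SLIT2. DCC, ARHGAP39, NCK1, PAK3 and VASP were not analysed here.

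**Figure D4:**
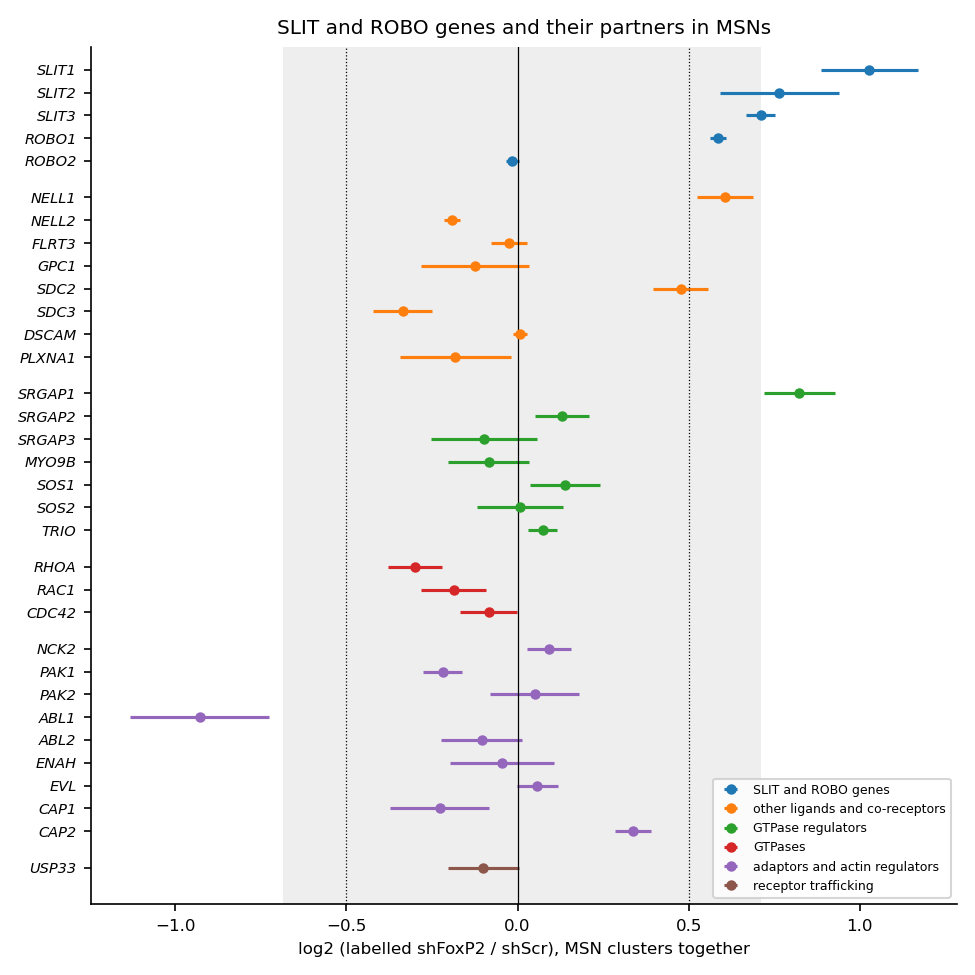
Log2 ratio of the library labelled shFoxP2 over shScr in MSNs for the SLIT and ROBO genes and their 28 measured partners, by role, with exact binomial 95% intervals. The shaded band spans the 5th to 95th percentile of all 10125 genes, from -0.68 to 0.71, and dotted lines mark the fold. SLIT1, SLIT2 and SRGAP1 lie right of the band, SLIT3 just past its right edge, and ABL1 left of it.

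The genes with cluster profiles most like each member were ranked over the 22 clusters with at least 50 nuclei in each library, among 8786 other genes with a symbol and at least 500 UMIs, by the lower of the Pearson r values of the libraries. ROBO2 had the closest matches: FAM131B (r = 0.831 in the library labelled shFoxP2 and 0.873 in shScr), CACNA1G, a T-type calcium channel gene (0.828 and 0.873), SHANK2, IGF1R and CELF4. SLIT3 was most like SYT9, a synaptotagmin gene (0.839 and 0.788), followed by AFF3, KCNIP4, TRPC4 and CADM2. ROBO1 was most like ADCY1, an adenylyl cyclase gene (0.721 and 0.658), then EML5, HS6ST1, STX1A and GDPD5. SLIT2 was most like TENM3, a teneurin adhesion gene (0.673 and 0.705), then MPPED1, RPS6KA2, RALYL and STK32B. SLIT1 was most like VWC2 (0.751 and 0.661), with PLD5, SLC4A11, TRHDE and RNF150 after it. Among the members themselves, SLIT1 and ROBO2 had the highest r in the library labelled shFoxP2 (0.603, and 0.490 in shScr), ROBO1 and ROBO2 the highest in shScr (0.578, and 0.518 in the library labelled shFoxP2), and SLIT3 was near 0 with ROBO1 (0.058 and -0.0094). Clusters share libraries and depth, and these values carry no test.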

How the data were processed

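The authors aligned 10x Chromium single-nucleus reads with CellRanger to bTaeGut1_v1.p with a pre-mRNA index, removed nuclei with over 10000 UMIs or over 5% mitochondrial reads, and clustered both libraries jointly with Seurat. They deposited raw UMI counts per gene and nucleus, as whole numbers, with cluster and library columns (other). The deposited table of both libraries held 27245 nuclei. The 14289 nuclei of the shScr table matched the shScr library of the joint table barcode by barcode and count by count, which set the shScr name, and the other library was named by exclusion. Members, partner list, marker list and named-gene rule were chosen with earlier results of these data known. The rule named the members, partners past the fold in MSNs or with their own peak in a member's top cluster, the 5 genes most like each member, and FOXP2 as the target.

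Counts were summed over nuclei (Python 3.11.15, numpy 2.4.6, scipy 1.17.1) and divided by total UMIs. Poisson and binomial intervals were exact at 95%. Calls used an absolute log2 ratio of 0.5 and at least 200 UMIs over both libraries. Shares were thinned to 1000 UMIs per nucleus, leaving out 531 nuclei of the library labelled shFoxP2 and 626 of shScr. Of these, 305 and 246 were red blood cell nuclei. Profiles used log2 of UMIs per 10000 plus 0.05. Scrublet (scanpy 1.11.5) called 1 and 0 doublets, so it had not worked as a caller. All nuclei were therefore kept, and an alternative dropped the top 8% by doublet score. The scripts were tested on simulated data. No gene sequences were used here.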

Additional observations from a re-analysis of the deposited data

Results flagged for a closer look

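The genes below had a log2 ratio (library labelled shFoxP2 over shScr) in a cluster outside MSNs that was opposite in sign to their ratio in MSNs, with both intervals clear of 0. The differences between clusters themselves were not tested, and each cluster has 1 library per condition. SLIT2 had -1.27 in GLUT+ cluster 10, from 43 UMIs in the library labelled shFoxP2 and 83 in shScr, and -1.77 in cluster 17 interneurons, from 20 and 58 UMIs, beside 0.76 in MSNs. SLIT3 had -0.77 in cluster 13 interneurons, from 271 and 263 UMIs, beside 0.71 in MSNs. ROBO1 had -0.26 in astrocyte cluster 6, -0.17 in GLUT+ cluster 10, -0.27 in cluster 13 interneurons and -0.13 in cluster 14 interneurons, none past the fold, beside 0.59 in MSNs.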

How the results depend on the processing

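No paired analysis was possible because each condition has 1 library, and no replicate could be left out. The MSN log2 ratios of SLIT1, SLIT2, SLIT3 and ROBO1 stayed above 0 under all 8 alternatives each, and those of SLIT1 (0.83 to 1.11) and SLIT3 (0.70 to 0.71) stayed past the fold. With cluster shares held, SLIT2 came to 0.39 and ROBO1 to 0.48, both short of the fold, and ROBO2 to -0.094. Thinned to 500 UMIs, SLIT1 came to 0.83, SLIT2 to 0.94 and ROBO2 to 0.021, and thinned to 1000 UMIs ROBO1 came to 0.63. In the top clusters, SLIT1 in cluster 10 averaged 3.11 UMIs per 10000 over nuclei in the library labelled shFoxP2 and 2.69 in shScr, SLIT2 in cluster 16 came to 6.72 in the library labelled shFoxP2 without the possible doublets, and ROBO1 in cluster 14 to 40.4 in shScr with the clusters of the shScr table alone. The other 41 of 45 level values stayed within their intervals. At an absolute log2 ratio of at least 1, 0 partners were higher and 0 lower, and at a minimum of 1000 UMIs 0 were lower. The shares of all genes at these settings are not given here, so these counts have no base beside them. Of 220 values in other classes 49 left their interval, and of 40 MSN shares 30 did. Among them, SLIT2 in pallidal-like neurons had -0.36 when thinned to 500 UMIs, beside 0.35, and calls in classes were lost for SLIT2 in indirect-like MSNs (0.49 thinned to 1000 UMIs, 0.48 to 500), SLIT1 in GLUT+ neurons (0.43 and 0.48) and ROBO1 in indirect-like MSNs (0.49 thinned to 500). Depth limits SLIT1 and SLIT2 most, with 13.7% and 6.04% of MSN nuclei holding a UMI in the library labelled shFoxP2 and 5.56% and 3.43% in shScr.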
